A study of Mus musculus with 6 samples.

Results

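The genes described here encode factors that store, deadenylate or decay the mRNA a mouse oocyte lays down for the embryo. They are Zar1, Btg4, Cpeb1, Ybx2, Cnot7, Cnot6l, Zfp36l2, Dcp1a, Pabpc1l and Pan2. They were chosen by name, with earlier results of these data known. Of these 10 genes 9 had a probe on the array, with 13 probes in all, of 41174 probes and 27597 named genes. Pan2 was found under its earlier symbol Usp52. Pabpc1l, the poly(A)-binding protein of oocytes, was found under neither its symbol nor its earlier one, so its RNA level was not analysed here and only its promoter was read.

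RNA from B6C3 F1 mouse ooplasts and blastocysts was hybridised to 6 single-colour (Cy3) Agilent arrays, 1 sample for each. An ooplast is an oocyte from which the chromosomes have been removed, and a blastocyst is the embryo just before implantation, with trophectoderm outside and the inner cell mass within. Ooplasts were read on 1 array for young and 1 for climacteric (reproductively aged) mice, and blastocysts on 2 arrays for each age. The labels used here give neither ages in months, nor pool sizes, nor the way the blastocysts were made, and the design text calls the replicates biological without saying how they were kept apart. The p-values therefore rest on sample-to-sample spread that may be partly technical. No genetic change or drug is named for any group.

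A growing oocyte makes large amounts of mRNA and keeps much of it silent with a short poly(A) tail. RNA-binding proteins such as ZAR1, YBX2 and CPEB1 hold these messages, and CPEB1 also directs the lengthening of their tails when the oocyte resumes meiosis. Decay then sets in: BTG4 brings the CCR4-NOT deadenylase, with its catalytic subunits CNOT7 and CNOT6L, to the messages. ZFP36L2 recruits it to AU-rich messages, PAN2 trims long tails, and DCP1A activates removal of the cap. Most maternal mRNA is gone before the blastocyst forms.

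The array was checked against markers of both stages. All 8 oocyte markers (such as Zp3 and Gdf9) were measured well above background in both ooplast samples, with summed signals of 1007159 and 1016962 units. On the blastocyst arrays 4 or 5 of them were, with summed signals of 2290 to 3194. All 6 trophectoderm markers were well above background on every blastocyst array, with summed signals of 991317 to 1193609 in replicate 1 and 1105526 to 1268665 in replicate 2. In young and climacteric ooplasts 5 and 4 of them were, with summed signals of 5813 and 5864. Of 6 inner cell mass markers 3 were on each ooplast array (1935 and 1634 units) and 5 or 6 on the blastocyst arrays (52139 to 70720 units). By their brightest probes Gata4 was lower in blastocysts (log2 -1.68), Pou5f1 stood at 0.25 and the others of this list were higher. The share of spots well above background was 42.2% and 42.4% on the ooplast arrays and 49.9% to 57.3% on the blastocyst arrays. Ooplast arrays had a 75th percentile of 235 and 238 units and blastocyst arrays one of 721 to 1111. Levels below are the log2 signal less that percentile, so they are relative to the other transcripts of the array. In such bulk samples fewer cells of a type and less RNA in each cell cannot be told apart.

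The promoters of 3 of these genes are shown because the stages differed most for Zar1 and Btg4 and least for Ybx2 among the genes tested. YBX2 itself binds a Y-box, a promoter element around CCAAT. The sequences are RefSeq's (GRCm38.p6), 5′ to 3′ on the gene's strand, and cover the 250 bases before the annotated start. That of Zar1 is chr5:72581085-72581334 (minus strand), that of Btg4 chr9:51115751-51116000 (plus strand) and the first of the 2 listed for Ybx2 chr11:69935649-69935898 (plus strand). Capitals mark CCAAT on either strand (ATTGG when on the other) and CANNTG, the E-box core.
Zar1: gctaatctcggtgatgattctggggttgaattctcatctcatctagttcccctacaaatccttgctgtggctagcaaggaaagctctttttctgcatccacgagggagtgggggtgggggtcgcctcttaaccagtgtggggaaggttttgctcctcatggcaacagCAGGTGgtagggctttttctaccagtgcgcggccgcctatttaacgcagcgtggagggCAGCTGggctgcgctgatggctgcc
Btg4: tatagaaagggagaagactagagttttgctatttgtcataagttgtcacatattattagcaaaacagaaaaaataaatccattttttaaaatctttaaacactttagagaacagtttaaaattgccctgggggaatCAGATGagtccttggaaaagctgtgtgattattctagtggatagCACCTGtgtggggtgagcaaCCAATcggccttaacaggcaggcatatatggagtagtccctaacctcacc
Ybx2: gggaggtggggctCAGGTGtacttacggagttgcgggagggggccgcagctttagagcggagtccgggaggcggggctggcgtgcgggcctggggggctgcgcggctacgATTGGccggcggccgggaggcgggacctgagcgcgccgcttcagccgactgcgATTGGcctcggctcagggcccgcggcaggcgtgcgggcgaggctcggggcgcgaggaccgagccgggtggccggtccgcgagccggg
Zar1 had no CCAAT, Btg4 had 1, which begins 50 bases before the start, and the Ybx2 window shown had 2, at 140 and 87 bases. The second Ybx2 window, not shown, had 0 CCAAT and 0 CANNTG. Over the 11 windows of the 8 listed genes found in the RefSeq table, 4 held CCAAT, against 33.8% of 32851 promoters, and 8 held CANNTG, against 66.2%. The 3 windows of Cnot6l overlap. TAATTG, the core bound by the oocyte factor NOBOX, was in 0 of the 11, against 7.17%, and TATAAA in 1, against 12.4%. Each motif was searched on both strands, and in the windows shown no CCAAT overlaps a CANNTG. Matches are descriptions of letters and not measured sites.

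The first comparison asked how these messages differ between the egg's cytoplasm and the blastocyst. Every one of the 6 genes measured on all 6 arrays was lower in blastocysts, Cnot6l and Dcp1a by 112-fold and 38.2-fold and Cpeb1, Pan2 and Ybx2 by 3.34-fold to 21.9-fold. Cnot7 was lower by 83.6-fold or 6.37-fold, depending on the probe. Zar1 and Btg4 did not rise well above background in any of the 4 blastocyst samples. Zfp36l2 was too dim to test. Among all 10910 genes measured on all arrays 4901 (44.9%) fell, so a fall as such is common, and the median of the 6 genes was -4.85 on the log2 scale beside -0.57 for all. Since the genes were chosen with earlier results of these data known, that contrast is a description and not a test. Of 15605 genes tested when brightness in 1 stage sufficed, 39.0% fell, 35.5% rose and 74.5% passed in either direction. All tests of stage are limma fits over both ages with Benjamini-Hochberg adjustment over all genes, and the small number of arrays limits their precision.

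**Figure D1:**
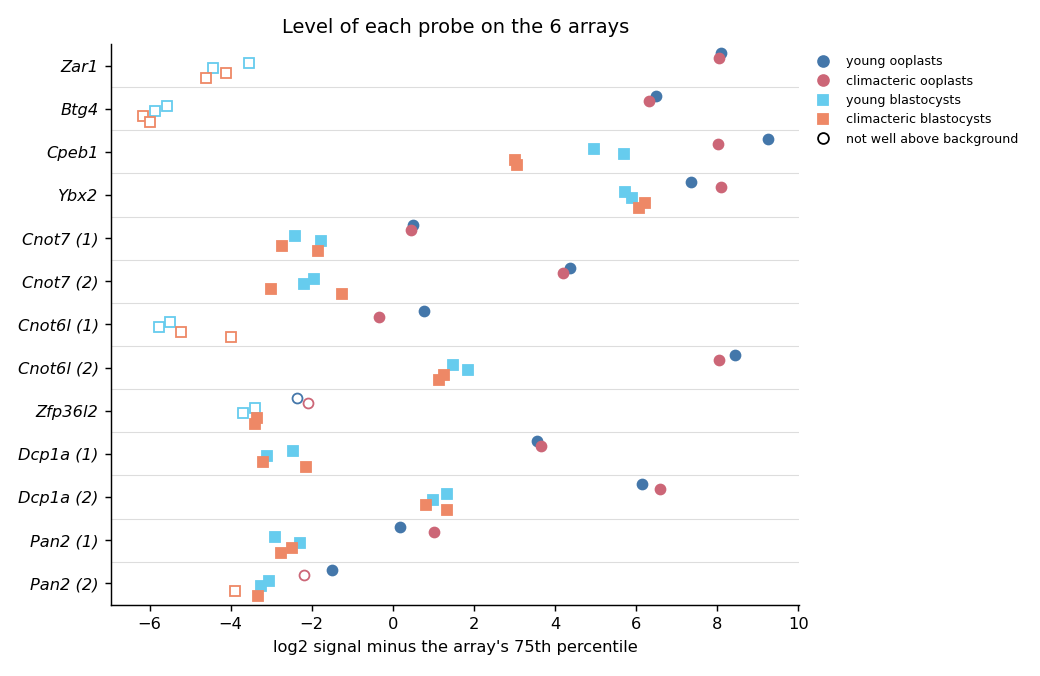
Level of each of the 13 probes on the 6 arrays, as log2 signal relative to the 75th percentile of its array (x axis); circles are ooplasts, squares blastocysts, and open symbols were not well above background. Ooplasts lie to the right of blastocysts for every probe, by over 10 log2 units for Zar1 and Btg4 and by under 2 between the means for Ybx2. For Zfp36l2 and Pan2 (2), both near background, this is not a measured stage difference. The lowest well measured level was -2.30 and -2.20 on the ooplast arrays and -3.97 to -3.45 on the blastocyst arrays. Numbers in brackets tell apart probes of 1 gene.

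Among the storage factors, Zar1, an RNA-binding protein needed after fertilisation, gave signals of 64374 units in young and 62926 in climacteric ooplasts. In blastocysts it gave 61 and 52 (young) and 61 and 35 (climacteric) units, none well above background. The ooplast arrays thus gave almost the same value and the stages were far apart. In levels it stood at 8.07 ± 0.03 (SD, n = 2) in ooplasts and was at least 3520-fold lower in blastocysts. It entered the test through ooplasts alone, and its limma adjusted p of 6.98e-06 rests on background signal in blastocysts. Here "at least" divides the ooplast mean by the dimmest signal still well measured on each blastocyst array (or by this probe's signal if brighter), averaged. In mm8, the genome build of the array files and of all probe positions here, the Zar1 probe covers chromosome 5 from 72857432 to 72857570, a span of 139 bases.

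Cpeb1, which binds the cytoplasmic polyadenylation element, gave 143308 units in young and 61553 in climacteric ooplasts. It gave 22467 and 57721 units in young blastocysts and 8612 and 7073 in climacteric ones. The ooplast level was 8.63 ± 0.87 (SD, n = 2) and that of blastocysts 4.18 ± 1.36 (SD, n = 4), a fall of log2 -4.45 ± 0.36 (SE, adjusted p = 7.73e-05). The scaled levels of the stages did not overlap, and Cpeb1 had the widest spread of the genes here within blastocysts, which divided by age. Its probe lies on chromosome 7 from 81220990 to 81221049.

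Ybx2, the germ-cell Y-box protein that coats stored mRNA, behaved differently in signal. It gave 38332 and 64611 units in young and climacteric ooplasts. In blastocysts it gave 38289 and 65967 units (young) and 78729 and 57154 (climacteric). The raw signals of the stages thus overlapped, and only after scaling to the brighter blastocyst arrays did they part. The ooplast level was 7.72 ± 0.52 (SD, n = 2) and that of blastocysts 5.97 ± 0.21 (SD, n = 4), which gives log2 -1.74 ± 0.25 (SE, adjusted p = 0.000961). It was -1.15 after quantile normalization and -1.05 in the authors' deposited table, below 0 under every scaling tried. For all genes tested the median difference was -0.26, with a range of -0.46 to -0.14 over the scalings. The Ybx2 probe lies on chromosome 11 from 69757687 to 69757746.

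Among the deadenylation factors, Btg4, the adaptor that links CCR4-NOT to maternal messages, gave 21297 and 19073 units in ooplasts. It gave 13 to 19 units on the blastocyst arrays, none well above background. Its level of 6.41 ± 0.12 (SD, n = 2) in ooplasts was at least 1115-fold above blastocysts. As for Zar1, the adjusted p of 6.92e-06 rests on background signal in blastocysts. The probe lies on chromosome 9 from 50871796 to 50871855.

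Cnot6l, a CCR4-type catalytic subunit, gave 81637 and 62515 units in ooplasts. It gave 2002 and 4001 units in young and 2534 and 1867 in climacteric blastocysts. All 4 blastocyst values lay far below both ooplast values, and the transcript stayed well above background there. The difference was log2 -6.81 ± 0.25 (SE), or 112-fold (adjusted p = 9.28e-06). A dimmer second probe gave 399 and 188 units in ooplasts and was not well above background in blastocysts, at least 15.2-fold lower. The brighter probe lies on chromosome 5 from 96317178 to 96317237 and the dimmer one from 96316416 to 96316475.

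Cnot7, the CAF1-type catalytic subunit, had probes that differed in size of the fall. One, on chromosome 8 from 41992224 to 41992283, gave 4871 and 4368 units in ooplasts and 132 to 359 in blastocysts, log2 -6.39 ± 0.50 (SE, adjusted p = 6.42e-05). The other, from 42008957 to 42009016, gave 332 and 325 units in ooplasts and 136 to 323 in blastocysts. Its raw signals nearly met, and in levels it fell by log2 -2.67 ± 0.36 (SE, adjusted p = 0.000676 with every probe tested by itself). The fold for the gene thus rests on the probe, 83.6-fold or 6.37-fold, and whether the probes differ was not tested.

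Pan2, the exonuclease subunit of the PAN2-PAN3 deadenylase, was dim in both stages. It gave 267 and 483 units in ooplasts and 97 to 227 in blastocysts, and no ooplast signal was below a blastocyst one. The difference was log2 -3.21 ± 0.33 (SE), or 9.24-fold (adjusted p = 0.000208). A second probe was near background everywhere, at 52 to 117 units, and well above it on 1 of 2 ooplast and 3 of 4 blastocyst arrays. The first probe lies on chromosome 10 from 127723811 to 127723870.

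Zfp36l2, an AU-rich element binding protein, gave 46 and 55 units in ooplasts, not well above background. In blastocysts it gave 68 and 86 units (young) and 104 and 80 (climacteric), well above background only on the climacteric arrays. The single probe, on chromosome 17 from 84094775 to 84094834, therefore gives no measured stage difference, and none was tested.

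Dcp1a, the activator of decapping, was read by a pair of probes that fell alike. The brighter one, on chromosome 14 from 29355666 to 29355725, gave 16691 and 23080 units in ooplasts and 1833 to 2211 in blastocysts. That is log2 -5.25 ± 0.30 (SE), or 38.2-fold (adjusted p = 2.13e-05). The other gave 2749 and 2982 units in ooplasts and 115 to 193 in blastocysts, log2 -6.32 ± 0.39 (SE). The stages were far apart for both probes. The blastocyst levels lay close together for the brighter probe (SD 0.26, n = 4) and less so for the dimmer one (SD 0.51, n = 4).

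**Figure D2:**
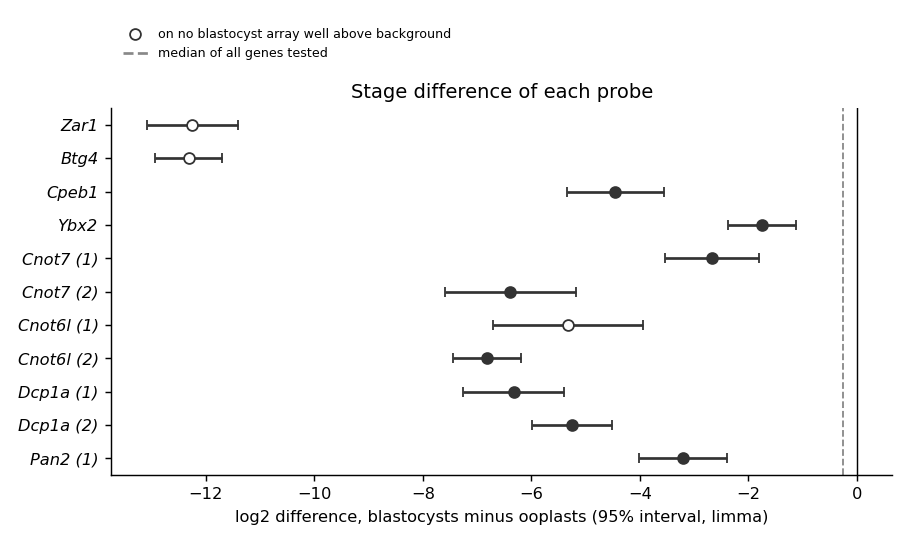
Difference between blastocysts and ooplasts (log2, x axis) of each of the 11 probes tested, with limma's 95% interval, every probe tested by itself; the dashed line is the median of all genes tested. All intervals lie below 0, that of Ybx2 nearest to it (-2.37 to -1.11), and open symbols depend on a background signal in blastocysts.

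The closest relatives of these genes were set beside them, since many have a counterpart that works in most cell types. Pabpc1, the general poly(A)-binding protein, rose by log2 2.89 ± 0.26 (SE, adjusted p = 0.000111), and Zfp36l1, a relative of Zfp36l2, by 3.72 ± 0.35 (adjusted p = 0.000135). A second probe of Zfp36l1 stood at 4.34. Tob2, an adaptor of the Btg and Tob family, fell as Btg4 did, by log2 -8.24 ± 0.30 (adjusted p = 9.28e-06). These 3 kept their direction and call under every alternative run.

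Other relatives were less settled. Cpeb3 fell by -2.70 ± 0.24 (adjusted p = 0.000119) by its brighter probe, while a second, well above background on 1 of 2 ooplast arrays, stood at 0.56 (adjusted p = 0.15), and their mean at -1.07. Cnot6, the relative of Cnot6l, stood at log2 1.61 ± 0.44 (adjusted p = 0.016), but at 0.88 (adjusted p = 0.17) without the young ooplast array and at 1.30 (adjusted p = 0.057) with a replicate block. For Cnot8, the relative of Cnot7, 1 probe rose by 1.77 and the other fell by -1.77, both past the threshold. Btg3 rose by 1.59 ± 0.29 (adjusted p = 0.003) and Btg1 stood at 0.18 (adjusted p = 0.53). Btg2 stood at 1.93 by its brightest probe and at -0.18 and -0.01 by its others, and at -0.32 after quantile normalization. Tob1 stood at log2 -3.22 ± 0.69 (adjusted p = 0.0056) and, with the young ooplasts left out, at -2.31 (adjusted p = 0.068). Ybx1 stood at -1.34 ± 0.28 (adjusted p = 0.005) and missed the threshold after quantile normalization (-0.55, adjusted p = 0.093), with the authors' deposited table (-0.46) and by the mean of its probes (0.024). Pabpc4 stood at -1.13 ± 0.30 and Cpeb4 at -0.75 ± 0.25, and without the climacteric ooplast array neither passed (-0.70 and -0.89, adjusted p = 0.14 and 0.077). Pabpc4 also missed it after quantile normalization (-0.32), with the authors' deposited table (-0.19) and by the mean of its probes (-0.27). Cpeb4 also missed the threshold without the young ooplast array (-0.62), without either young blastocyst array (-0.68 and -0.79) and without replicate 2 of climacteric blastocysts (-0.75). A second Cpeb4 probe stood at -5.05 (adjusted p = 6.8e-05) and the mean of both at -2.90, so that its size rests on the probe. Dcp1b stood at -1.28 ± 0.61 (adjusted p = 0.10), and passed without replicate 2 of young blastocysts (-1.79, adjusted p = 0.0064). Cpeb2 and Zfp36 were not well above background in ooplasts. Zfp36 was at least 2.31-fold higher in blastocysts, a call lost without either ooplast array (adjusted p = 0.114 and 0.0736) and after normexp background correction, where it stood at log2 0.23 (adjusted p = 0.47), and no fold is given for Cpeb2.

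**Figure D3:**
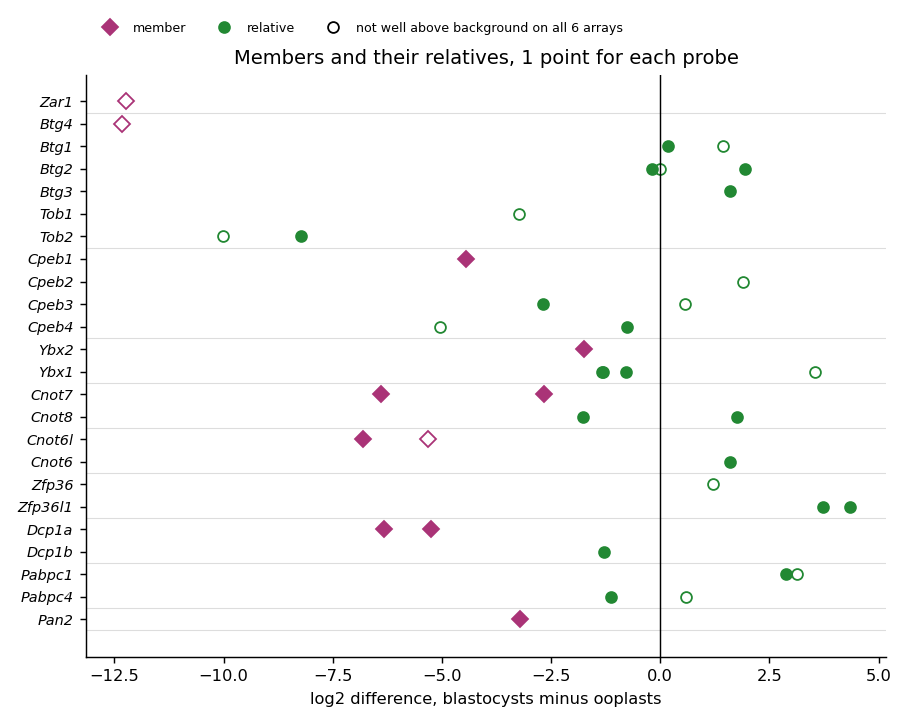
Difference between blastocysts and ooplasts (log2, x axis) of each probe of the genes described (diamonds) and of their relatives by name (circles), grouped by lines; open symbols were not well above background on all 6 arrays. All diamonds lie below 0, whereas relatives lie on both sides, from Tob2 at -8.24 to Zfp36l1 at 4.34 among filled circles. The genes described were chosen with earlier results of these data known.

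The wider machinery of storage and decay was counted in 6 lists that hold none of the 10 genes described, though they hold their relatives. Of 101 listed genes 90 were tested, of which 37 fell, 28 rose and 25 did not pass, with a median of -0.50 beside -0.26 for all genes tested. That is a share close to the 39.0% falling and 35.5% rising over all genes. Among 31 of them with several probes measured on all arrays, 2 (Cnot8 and Eif4e) had probes called in opposite directions, and for 17 the probes did not all give the same call.

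Of 14 CCR4-NOT subunits and adaptors tested, 7 fell and 4 rose (median -0.63). Tob2 and the subunit gene Cnot3 (-7.43 ± 0.65) fell most, and other Cnot3 probes stood at -2.13 and -4.16. Of 10 poly(A)-binding proteins and other deadenylases 6 fell and 4 rose (median -1.43). Paip1, a partner of the poly(A)-binding protein, fell by -5.20 ± 0.31. The circadian gene Noct, listed here with the deadenylases, fell by -3.65 ± 0.31. Paip2, which inhibits the poly(A)-binding protein, rose by 3.92 ± 0.39, and Pde12 was at least 2.01-fold higher in blastocysts. After normexp Pde12 stood at log2 0.75 (limma adjusted p = 0.028), which is below that bound. Of 15 decapping and 5′-3′ decay genes 5 fell and 4 rose (median -0.30). The decapping scaffold gene Edc4 fell by -3.93 ± 0.37 and Dcps, the scavenger of cap fragments, by -3.82 ± 0.56. Lsm4 and Lsm6, of the Lsm ring that binds deadenylated ends, rose by 5.80 ± 0.29 and 4.58 ± 0.29, though 1 Lsm6 probe stood at 0.46.

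Of 19 further storage and polyadenylation genes 11 fell and 5 rose (median -0.99). Dazl, a germ-cell translation factor, was called lower, but its brighter probe was well above background on 1 of 4 blastocyst arrays and its fitted -8.90 is not a measured size. Its second probe, measured on 3 of 4, stood at -4.27. Lsm14b, a component of stored mRNA particles, fell by -6.20 ± 0.30. Cpsf1 was at least 4.12-fold higher in blastocysts and Cpsf3, a nuclease of 3′ end formation, rose by 2.15 ± 0.25. The Cpsf1 call was lost without the climacteric ooplast array (1.97, adjusted p = 0.06) and after normexp (0.99, adjusted p = 0.061). Of 19 AU-rich element, m6A and uridylation factors 7 fell and 6 rose (median -0.44). Elavl2, an RNA-binding protein, was called lower, with a fitted -11.41 that is not a measured size, since 1 of 4 blastocyst arrays was well above background. A second Elavl2 probe was at least 19.1-fold lower. Upf3b, of nonsense-mediated decay, fell by -3.94 ± 0.36. Tut4, a uridylating enzyme, rose by 3.67 ± 0.40 and was well above background on 1 of 2 ooplast arrays. Of 13 exosome genes 1 fell and 5 rose (median 0.66). Exosc6 rose by 3.47 ± 0.37 and Wdr61 by 3.45 ± 0.25, but a second Wdr61 probe was at least 7.76-fold lower. Exosc4 stood at -1.11 ± 0.37 (adjusted p = 0.031), and missed the threshold without the climacteric ooplast array (-0.60, adjusted p = 0.30) and without replicate 2 of young (-1.17) or climacteric (-0.87) blastocysts. Its second probe stood at 0.31.

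The second comparison asked whether maternal age changed these messages in blastocysts. Cpeb1 was lower in climacteric blastocysts and did not pass the threshold after adjustment. The other 6 genes tested had fitted differences under 0.5 log2 units. No gene of the array passed limma's adjusted threshold (0 of 15971, or 0%), and 864 (5.41%) had an unadjusted p under 0.05, Cpeb1 alone among the 7 genes.

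Cpeb1 stood at 5.33 ± 0.52 (SD, n = 2) in young and 3.04 ± 0.03 (SD, n = 2) in climacteric blastocysts. Both young arrays were above both climacteric ones, a separation that 30.0% of all genes showed in one direction or the other. The difference was log2 -2.29 ± 0.36 (SE), or 4.91-fold, with a 95% interval of -3.20 to -1.39 (limma adjusted p = 0.46, unadjusted p = 0.00115 in a fit over all genes). A fall of at least 2-fold was seen for 3.07% of genes. Cpeb1 ranked 38 of 15971 by unadjusted p and 129 by size of fall. The blastocyst replicates numbered 1 shared slide 1 with the ooplasts, and those numbered 2 were on slide 2. Within slide 1 the difference was -1.95 and within slide 2 it was -2.65, 1 array against 1 each. The adjusted p was between 0.091 and 0.72 over the alternatives, the lowest without replicate 1 of young blastocysts, and 0.31 with a replicate block.

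For the others the intervals were wide. Ybx2 differed by 0.33 (95% interval -0.39 to 1.04), Cnot6l by -0.47 (-1.23 to 0.29) and Dcp1a by -0.098 (-0.95 to 0.75). Cnot7 differed by -0.06 (-1.63 to 1.51), where slide 1 gave -1.07 and slide 2 gave 0.95, so that either climacteric array alone would set its sign. Pan2 differed by -0.02 (-0.89 to 0.85). Adjusted p was 1.0 for these 5 and for Zfp36l2. Zfp36l2 entered the test through the climacteric arrays alone. Its levels of -3.40 and -3.69 (young) and -3.36 and -3.41 (climacteric) overlapped near background, so no direction is given. Such intervals do not show that the groups are alike. Zar1 and Btg4 were not tested, being near background in both groups. Of 92 genes of the 6 lists 0 passed and 2 had an unadjusted p under 0.05. The largest differences among them were Dis3l2, an exonuclease of uridylated RNA (-0.93 ± 0.40), and Tob1 (1.20 ± 0.73). Tob1 was well above background on 1 of 2 young blastocyst arrays, so its difference rests partly on background signal. It ran from 0.12 to 2.27 over the alternatives.

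The third comparison set climacteric against young ooplasts, with 1 array each, no test and no replicate check. Of 8 genes measured on both arrays 1, Cpeb1, was at least 2-fold apart, a share near the 17.2% of all 12291 genes. Cpeb1 was lower in climacteric ooplasts by log2 -1.23 (2.35-fold), and 9.86% of all genes were at least 2-fold lower and 7.36% higher. Of all 12291 genes 5058 were lower in climacteric ooplasts by any amount, and the share lower in both stages was not counted. Ooplasts and blastocysts are separate samples, and Cpeb1 was the lower of the pair in climacteric material in both. With age and stage in 1 fit of all 6 arrays, an alternative chosen after seeing the data, its age difference was -1.94 (limma adjusted p = 0.36).

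Zar1 (-0.047) and Btg4 (-0.17) were nearly equal in the ooplasts. Cnot7 differed by -0.17, Cnot6l by -0.40, Dcp1a by 0.45, Ybx2 by 0.74 and Pan2 by 0.84, beside a median of 0.15 for all genes. The second Cnot6l probe stood at -1.10. The scaling decides which reach 2-fold. After quantile normalization Cpeb1 stood at -0.96 and Ybx2 at 1.11. In the authors' deposited table they stood at -0.91 and 1.08, and Pan2 at 1.02. Of the genes at least 2-fold apart, 57.3% were lower in climacteric ooplasts, and between 41.6% and 66.8% under other scalings. Of 83 genes of the 6 lists measured on both arrays 8 were at least 2-fold lower and 5 higher, with Dis3, the exosome's nuclease, at -5.88 and Sympk, a polyadenylation scaffold, at 1.98.

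Markers of macrophages, cells that are no part of an ooplast or blastocyst, varied between arrays. Of 10 such genes, the young ooplast array measured 5 well above background and the climacteric one 8, with summed signals of 964 and 8909 units. On blastocyst arrays 5 and 5 (young) and 7 and 6 (climacteric) were, with summed signals of 2395 to 3956 in young and 2762 to 41111 in climacteric samples, which overlap. Lyz2, the macrophage lysozyme, was well above background in climacteric ooplasts and in replicate 1 of climacteric blastocysts and in no other sample. Cumulus and granulosa cell markers were above background for 6 of 10 on both ooplast arrays, with summed signals of 21057 and 20412 units. On the blastocyst arrays 5 or 6 of 10 were, with summed signals of 10180 to 23075 units. These raw sums overlapped between the stages, but the 75th percentile was 235 and 238 units in ooplasts and 721 to 1111 in blastocysts. In scaled levels single markers went both ways by stage, with Cyp19a1 at log2 -7.50 and Amhr2 at 5.52 in blastocysts less ooplasts. Amhr2 was well above background on 1 of 2 ooplast arrays. The part of these cells in the age differences was not tested.

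**Figure D4:**
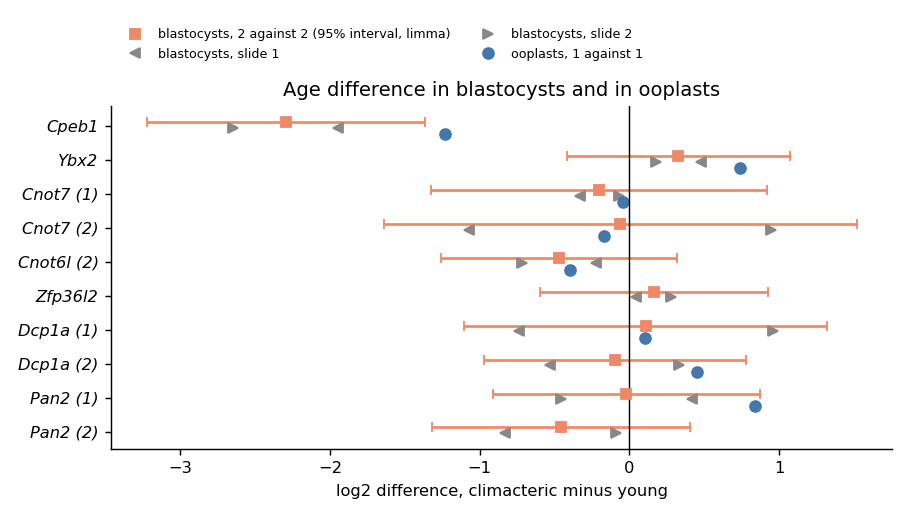
Difference between climacteric and young samples (log2, x axis) of each probe tested: squares with limma's 95% interval for blastocysts, each probe tested by itself, triangles for each slide, circles for ooplasts. Cpeb1 is left of 0 in all of them, from -2.65 to -1.23, whereas for Cnot7 (2), Pan2 (1) and both Dcp1a probes the slides lie on either side of 0; the Zfp36l2 values rest on background signal in young blastocysts.

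Profiles over the 6 arrays were compared last, each centred on its own mean, against 10909 other genes measured on all arrays. Genes whose names have a clone, accession or predicted form were passed over when the nearest were named. Likeness is the root mean square distance in log2 units, a smaller value being more alike, and stage dominates it. Nearest to Ybx2 were Ankrd28 (0.086) and Sec23a (0.089), and nearest to Cpeb1 were Olig2 (0.16) and Zcchc13 (0.20). Dcp1a lay nearest to Tcl1b4 (0.14) and Tiparp (0.15), Pan2 to Dctd (0.13) and Atp6v0a2 (0.15), Cnot6l to Ddx4 (0.20) and Plac8 (0.23), and Cnot7 to E2f5 (0.27) and Oas1c (0.28). Among the neighbours named, those of Cnot7 were thus the least close of the 6 genes.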

How the data were processed

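Per the labels' protocols, total RNA was column-purified, amplified and labelled with Cy3. Spots were read with Agilent Feature Extraction 9.5, per the submitters' processing notes. Per the file headers, the deposited processed intensity had its background removed by spatial detrending, with surrogate values for the dimmest spots, and probes were placed on mm8. The value table the authors deposited is on a log2 scale, with equal quantiles in all 6 columns and a rank correlation of 1 with each array's processed intensity, and was used as an alternative. The steps behind it are not given in the sources used here.

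Levels are log2 of the processed intensity less the 75th percentile of all non-control spots on that array. Outlier spots were left out of a probe's mean. A probe was kept where all arrays of 1 or more of the groups compared had it well above background, and the one with the highest mean stood for its gene. Names came from RefSeq (GRCm38.p6): 24375 probes by accession, 6301 by symbol, 2426 by synonym and 8072 with the file's name. Tests used limma 3.58.1 in R 4.3.3 (two-sided, Benjamini-Hochberg over all genes, threshold 0.05): stage over all 6 arrays in a model that also held age, and age over the 4 blastocyst arrays. On simulated data with 200 changed genes, 64% of 8-fold changes by stage (15605 genes) and 28% by age (15971 genes) were recovered. Of 4-fold changes 26% by stage and 0% by age were recovered, and of 2-fold changes 0% by either. Those stage shares do not carry over to the measured data, where 74.5% of genes passed by stage. The adjustment is stricter when few genes change, and in the data Cpeb4 passed at log2 -0.75.

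The text names all members, their relatives and the 2 largest rises and falls by stage of each list. It also names the list genes with the largest age differences and the 2 nearest profiles under the name rule above. The members and lists were chosen with earlier results of these data known. Alternatives were other scalings, normexp with offset 50, the authors' table, other filters and probe rules, left-out arrays, single ages or slides and a replicate block. Replicate numbers equal slides among blastocysts. The correlation of replicate differences between the young and climacteric blastocysts was 0.20 over 2 pairs, too few to show pairing.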

Additional observations from a re-analysis of the deposited data

How the results depend on the processing

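By stage, the 6 genes measured on all arrays (Cpeb1, Ybx2, Cnot7, Cnot6l, Dcp1a and Pan2) were lower with an adjusted p under 0.05 in every alternative run. For Zar1 and Btg4 the calls rest on background signal in blastocysts and say nothing of stability. With the replicate block, Ybx2 stood at -1.75 (adjusted p = 0.0048), 8 genes fell, and 0 differed by age in blastocysts. Of list genes 37 then fell and 26 rose. Among genes named in the text Cnot6, Cpeb4 (-0.79) and Exosc4 (-0.89) missed the threshold and Dcp1b passed (-1.97, adjusted p = 0.015). With every probe tested by itself, 18 list genes had all probes called higher in blastocysts, in place of 28, since more probes had to agree. Between ooplasts, after quantile normalization 0 genes were at least 2-fold lower and 1 higher, and with the authors' values 0 lower and 2 higher. Directions turned for Btg2 after quantile normalization (-0.32) and in the authors' table (-0.33), and under the mean of all probes for Cnot8 (-0.00052), Ybx1 (0.024) and Wdr61 (-0.62). Cpeb2 turned after normexp (-0.047), with no filter (-1.73), and with the young arrays alone (-2.83); with 1 array left out it ranged from -2.83, without climacteric ooplasts, to 2.01. Cpeb2, Btg2, Cnot8, Ybx1 and Wdr61 therefore have no settled direction. Signal over background limits Zar1 and Btg4 in blastocysts, and Zfp36l2 everywhere, to bounds or no value.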
